A study of Saccharomyces cerevisiae with 6 samples.

Results

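The comparison sets tra1_SRR3413 against tra1_S3463A, alleles of the budding yeast gene TRA1 that are named after residues of its PI3K domain. For every gene the log2 ratio of mutant over TRA1 strain on an array of tra1_S3463A was taken from that on the array of tra1_SRR3413 with the same number, so that both carried the mutant in the same dye. All genes on the array that are not control spots are members: 6256 genes, of which 6119 had a value on every array and were tested. The tra1_SRR3413 strain (CY1531) and the tra1_S3463A strain (CY1514) each had the chromosomal TRA1 gene disrupted (TRA1::Tn10LUK) and lived on a myc-tagged mutant allele on the plasmid YCplac111, a centromeric vector with the marker LEU2. The TRA1 strain (CY1524), labelled TRA1_SB, had the same disruption and carried a myc-tagged TRA1 gene on that plasmid, so neither mutant was set against a strain with TRA1 in its chromosome. The series also holds the allele tra1_P3408A (CY1507), built in that way. There were 2 arrays per allele on 6 arrays in all, each array holding a mutant beside the TRA1 strain. The labels name 1 strain per allele; the growth medium is not given in the sources used here.

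Tra1 is the large subunit that the histone acetyltransferase complexes SAGA and NuA4 share. It binds transcriptional activators and thereby brings these complexes to promoters. Its C-terminal domain resembles the kinase domain of the PI3K-related kinases, which include Tor1 and Mec1, but lacks the residues needed for kinase activity. In yeast SAGA is known for the activation of regulated genes, such as those of stress and nutrient supply, and NuA4 for that of ribosomal protein genes.

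Some labels conflict. The source of the mutant channel of tra1_S3463A array 1 names the tra1_SRR3413 strain, while its title names tra1_S3463A, and the title was followed. For array 2 of both alleles the source of 1 channel names another dye than the label field, which was followed. Results are therefore also given without tra1_S3463A array 1, and with that array counted as tra1_SRR3413. Without it the other arrays, those of tra1_P3408A included, were fitted with a block for the array number. Such values are thus not simply the difference between array 2 of the alleles. Of the 3 slides, slide 3 held array 2 of both alleles, so the difference on the second pair was taken within a slide. Array 1 of tra1_SRR3413 lay on slide 1 and array 1 of tra1_S3463A on slide 2, so the first pair spans both. Median signals were 1167 to 3617 in Cy3 and 1908 to 2482 in Cy5 over the 6 arrays, and both channels of 99.3% to 99.6% of gene spots exceeded background clearly. Precision is limited by having 2 arrays per allele. The series calls the 2 arrays of an allele biological replicates, while the labels do not say whether the TRA1 strain was extracted anew for each array.

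The tra1_SRR3413 and tra1_S3463A strains stood close to each other for most genes and farther apart for a few. Among the genes that led by the moderated statistic, TKL2, a transketolase gene, was 2.31-fold higher in tra1_SRR3413, the glycerol dehydrogenase gene GCY1 1.88-fold higher, the aquaporin gene AQY1 2.23-fold lower and the phosphate transporter gene PHO84 1.90-fold lower. None of these differences passed the test. limma called 0 of 6119 genes at an adjusted p under 0.05 (0% in either direction), and the smallest adjusted p was 0.224, that of TKL2. At an unadjusted p under 0.05 there were 225 genes higher (3.68%) and 277 lower (4.53%), 502 in all (8.2%).

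Differences on the 2 pairs ran alike. Across the 6119 genes the difference on pair 1 and that on pair 2 had a Pearson correlation of 0.70 and a Spearman correlation of 0.65. The pairs share no array, but genes are not independent replicates, so this describes the arrays. The difference had an SD over genes of 0.18 (log2) on pair 1 and 0.23 on pair 2. The sign was positive on both pairs for 2136 genes (34.9%) and negative on both for 2319 (37.9%). A mean difference of 2-fold or more was seen for 4 genes, TKL2, its overlapping reading frame YBR116C, RGI1 and AQY1, and one of 1.5-fold or more for 77. On both pairs alike, 18 genes were 1.5-fold or more higher in tra1_SRR3413 (0.294%) and 21 were 1.5-fold or more lower (0.343%).

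**Figure D1:**
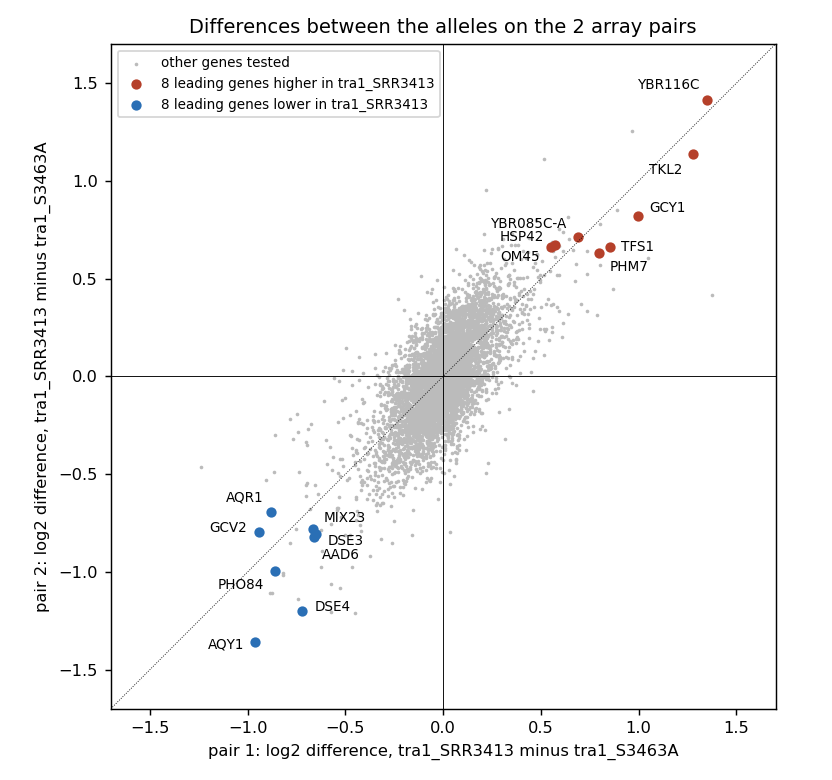
Log2 difference, tra1_SRR3413 minus tra1_S3463A, of each of 6119 genes on the first array pair (x axis) and on the second pair (y axis). Grey points are single genes, red points the 8 leading genes higher in tra1_SRR3413 and blue points the 8 leading genes lower, and the dotted line marks equal differences. The cloud runs along that line, and the coloured genes lie toward its ends, with TKL2 at 1.28 and 1.14 and PHO84 at -0.86 and -0.995.

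Whether genes were called depended on which arrays set the spread and, with 4 arrays alone, on the block for the array number. With the 6 arrays in 1 fit there were 2 residual and 3.50 prior degrees of freedom, and the typical SD of a gene was 0.1195 (log2). When the fit held the 4 arrays of tra1_SRR3413 and tra1_S3463A alone, limma called 615 of 6206 genes higher (9.91%) and 644 lower (10.4%), 20.3% in either direction. That fit has 1 residual degree of freedom, and its prior degrees of freedom were infinite, so every gene was given the same SD of 0.0837 whatever its own scatter. Without tra1_P3408A array 1 the calls were 605 and 635, and without tra1_P3408A array 2 they were 614 and 644. These p-values rest on an equal spread for all genes, which was not tested. Without tra1_S3463A array 1, and with that array counted as tra1_SRR3413, there were 0 calls. In the same 6-array fit tra1_SRR3413 differed from tra1_P3408A at an unadjusted p under 0.05 in 742 genes (12.1%) and tra1_P3408A from tra1_S3463A in 88 (1.44%), with 0 genes past the adjusted threshold in either. These contrasts share arrays with the main one, and the difference between their counts was not tested.

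The 8 leading genes higher in tra1_SRR3413 by the moderated statistic were TKL2, GCY1, YBR085C-A, PHM7, TFS1, YBR116C, OM45 and HSP42. TKL2 makes the minor transketolase of the pentose phosphate pathway. It stood at 1.36 and 2.70 (log2 mutant / TRA1, arrays 1 and 2) in tra1_SRR3413, against 0.08 and 1.56 in tra1_S3463A, a difference of 1.21 ± 0.10 (SD over the 2 pairs). Array 1 of tra1_SRR3413 lay below array 2 of tra1_S3463A, so the alleles overlapped while both pairs differed by more than 1 log2 unit. YBR116C is a reading frame that overlaps TKL2, and signal of the 2 cannot be told apart here. YBR116C stood at 1.55 and 2.45 in tra1_SRR3413, against 0.20 and 1.03 in tra1_S3463A. Its difference, 1.38 ± 0.05, was the largest among the leading genes.

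GCY1 makes an aldo-keto reductase that acts as a glycerol dehydrogenase. It stood at -0.18 and -0.14 in tra1_SRR3413, against -1.17 and -0.96 in tra1_S3463A, a difference of 0.91 ± 0.12. The tra1_SRR3413 strain was thus close to the TRA1 strain, and the tra1_S3463A strain about as far below it as tra1_P3408A, whose mean was -0.99. OM45, a gene for a protein of the mitochondrial outer membrane, had the same arrangement. OM45 stood at -0.22 and -0.34 in tra1_SRR3413, against -0.77 and -1.01 in tra1_S3463A, and its mean in tra1_P3408A was -1.01. HSP42, which makes a small heat shock chaperone, stood at -0.16 and 0.22 in tra1_SRR3413, against -0.73 and -0.46 in tra1_S3463A.

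TFS1 makes an inhibitor of the vacuolar carboxypeptidase Y. It stood at 0.49 and 0.93 in tra1_SRR3413, against -0.36 and 0.27 in tra1_S3463A, a difference of 0.76 ± 0.14. PHM7 makes a membrane protein of unknown function. It stood at 0.84 and 1.29 in tra1_SRR3413, against 0.04 and 0.66 in tra1_S3463A, and differed by 0.71 ± 0.12. YBR085C-A, an uncharacterised gene, stood at 1.07 and 1.11 in tra1_SRR3413, against 0.39 and 0.40 in tra1_S3463A. Its difference was 0.70 ± 0.02.

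The 8 leading genes lower in tra1_SRR3413 were PHO84, GCV2, AQR1, DSE3, AQY1, MIX23, DSE4 and AAD6. PHO84 makes the high-affinity phosphate transporter of the plasma membrane. It stood at -3.11 and -2.83 in tra1_SRR3413, against -2.25 and -1.84 in tra1_S3463A, a difference of -0.93 ± 0.09. Both strains were far below the TRA1 strain, and tra1_SRR3413 farther. GCV2 makes the glycine decarboxylase subunit of the glycine cleavage complex, which feeds the folate-bound carbon pool. GCV2 stood at -2.57 and -2.26 in tra1_SRR3413, against -1.63 and -1.46 in tra1_S3463A, a difference of -0.87 ± 0.10. AAD6, of the aryl-alcohol dehydrogenase family, stood at -2.41 and -1.82 in tra1_SRR3413, against -1.76 and -0.9999 in tra1_S3463A.

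AQY1 makes an aquaporin, a water channel. It stood at -1.64 and -1.45 in tra1_SRR3413, against -0.68 and -0.09 in tra1_S3463A, and its difference of -1.16 ± 0.28 was the largest of the 8. AQR1 makes a transporter of the plasma membrane that exports short-chain acids and amino acids. AQR1 stood at -0.85 and -0.76 in tra1_SRR3413, against 0.03 and -0.06 in tra1_S3463A, so that tra1_S3463A lay near the level of the TRA1 strain and tra1_SRR3413 below it. MIX23 makes a small protein of the mitochondrial intermembrane space. It stood at -0.23 and -0.66 in tra1_SRR3413, against 0.44 and 0.13 in tra1_S3463A, on opposite sides of the TRA1 strain.

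DSE3 and DSE4 are expressed in daughter cells after division. DSE4 makes a glucanase that degrades the septum between mother and daughter. It stood at 0.03 and -0.74 in tra1_SRR3413, against 0.75 and 0.46 in tra1_S3463A, a difference of -0.96 ± 0.34. DSE3 stood at -0.82 and -1.07 in tra1_SRR3413, against -0.17 and -0.26 in tra1_S3463A, a difference of -0.73 ± 0.11. In all, the arrays of the 2 alleles did not overlap for 7 of the 8 leading higher genes and 8 of the 8 leading lower ones. Over all genes, 603 were non-overlapping and higher (9.85%) and 657 non-overlapping and lower (10.7%). Since the leading genes were picked by this contrast, their count describes them only.

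The 16 leading genes had standard errors of 0.097 to 0.21 and adjusted p-values of 0.224 to 0.442 in limma. Without tra1_S3463A array 1 their differences were 0.61 to 1.59 for the higher genes and -1.42 to -0.73 for the lower ones. With that array counted as tra1_SRR3413 they were 0.52 to 1.43 and -1.29 to -0.61. The fit of the 4 arrays called all 16, at adjusted p-values up to 4.17e-11, under the equal spread named above. With the slide as a block in place of the array number AAD6 moved to -0.46. That fit holds no block for the dye orientation.

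**Figure D2:**
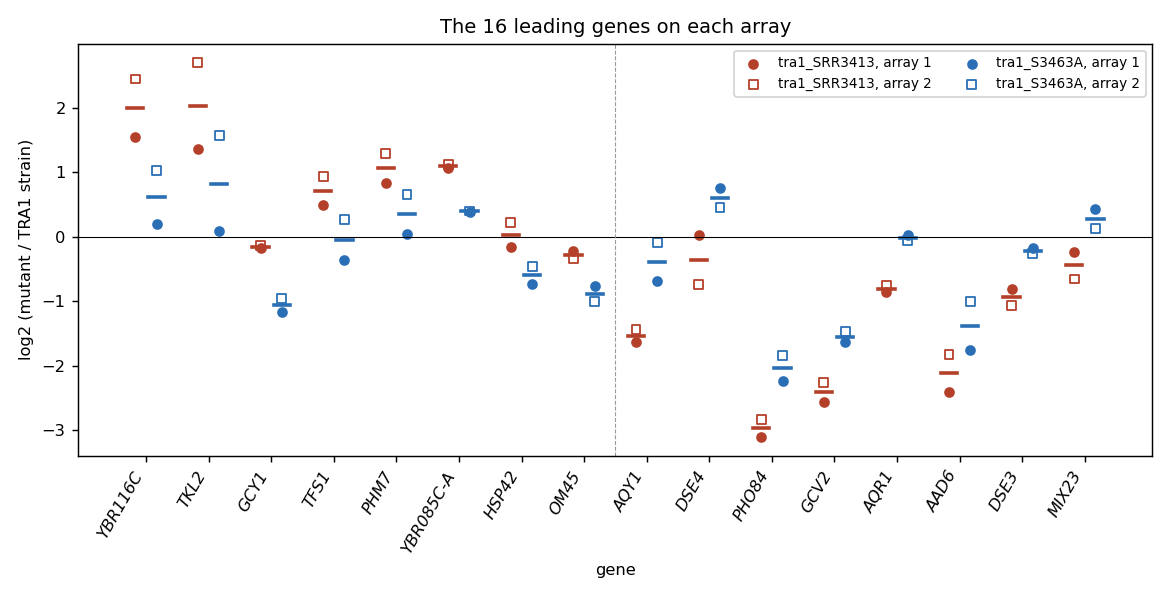
Log2 ratio of mutant over TRA1 strain (y axis) on each array for the 16 leading genes, the 8 higher in tra1_SRR3413 left of the dashed line and the 8 lower ones right of it. Red marks are tra1_SRR3413 and blue marks tra1_S3463A, filled circles array 1, open squares array 2 and bars the mean of an allele's arrays. The alleles separate for every gene but TKL2, whose array 1 of tra1_SRR3413 (1.36) lies below array 2 of tra1_S3463A (1.56).

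The 39 genes that were 1.5-fold or more apart on both pairs did not all depart from the TRA1 strain in the same way. Of the 21 lower genes, 16 were below the TRA1 strain on average in both alleles, with tra1_SRR3413 farther away, and 5 lay on opposite sides of it. Of the 18 higher genes, 9 were above the TRA1 strain in both alleles with tra1_SRR3413 farther, 5 were below it in both with tra1_S3463A farther, and 4 lay on opposite sides. GCY1, CTT1, RTN2, CYC7 and ROQ1 were the 5 in which tra1_S3463A stood farther from the TRA1 strain. CTT1, the cytosolic catalase gene, averaged -0.61 in tra1_SRR3413 and -1.24 in tra1_S3463A. RTN2, a reticulon gene, averaged -0.37 and CYC7, the gene of the minor cytochrome c, -0.46 in tra1_SRR3413, against -1.24 and -1.19 in tra1_S3463A. These 5 names were chosen after their values were seen.

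**Figure D3:**
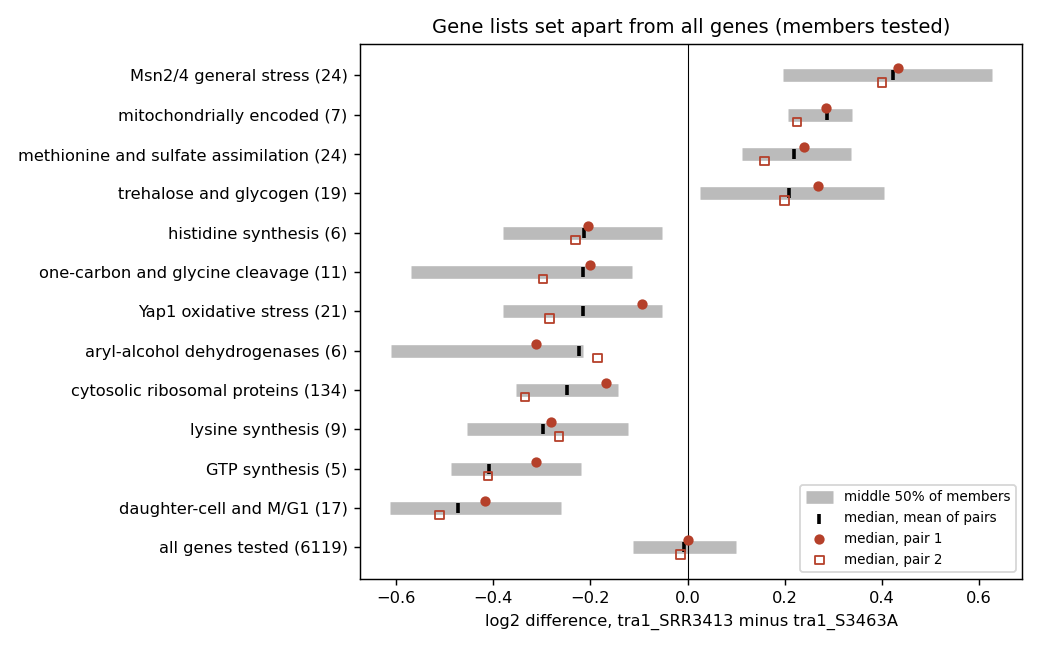
Log2 difference, tra1_SRR3413 minus tra1_S3463A (x axis), of the 12 gene lists that are described, with the number of members tested in brackets and all 6119 genes in the lowest row. Grey bars span the middle 50% of members, black ticks mark the median of the mean differences, filled circles the median on pair 1 and open squares that on pair 2. The general stress list stands highest, with a median of 0.42, and the daughter-cell list lowest, at -0.47, while the median of all genes is -0.01.

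Of 49 gene lists, 12 had a median at least 0.2 (log2) from that of all genes (-0.01) with the middle 50% of members on 1 side of it. As 0 genes passed the adjusted threshold, 0 members of any list did. The counts below are of genes at an unadjusted p under 0.05, read against 3.68% higher and 4.53% lower over all genes, and of genes with 1 sign on both pairs, read against 34.9% and 37.9%. Members called by the 4-array fit are read against 9.91% and 10.4%.

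General stress genes, which the activators Msn2 and Msn4 switch on, had the highest median difference, 0.42 (0.43 on pair 1 and 0.40 on pair 2). Of 24 tested members, 11 were higher in tra1_SRR3413 at an unadjusted p under 0.05, 0 were lower, and 19 were higher on both pairs. The 4-array fit called 17 higher and 1 lower. On single arrays the list's median was -0.49 and -0.23 in tra1_SRR3413, against -0.91 and -0.56 in tra1_S3463A. The median was thus below the TRA1 strain on all 4 arrays, and farther below in tra1_S3463A on each pair.

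By the rule for named genes TFS1, OM45, HBT1 and DDR2 stand for this list. HBT1, a gene of cell shape during mating, stood at -0.42 and 0.91 in tra1_SRR3413, against -0.90 and 0.28 in tra1_S3463A, a difference of 0.55 ± 0.10. DDR2, a stress gene of unknown function, stood at 0.45 and 1.08 in tra1_SRR3413, against -0.14 and 0.42 in tra1_S3463A, a difference of 0.63 ± 0.05. The alleles overlapped across arrays for HBT1 and not for DDR2, and both genes were higher in tra1_SRR3413 on both pairs. Among members picked after their values were seen, RTN2 differed by 0.87, TMA10, a ribosome-associated stress gene, by 0.83, and HSP12, which makes a membrane-stabilising heat shock protein, by 0.21, with spots saturated on 3 of the 4 arrays. HSP31, a chaperone gene, differed by 0.04 on pair 1 and -0.55 on pair 2. Leaving out tra1_S3463A array 1 gave a median of 0.30, and counting it as tra1_SRR3413 gave 0.24.

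Trehalose and glycogen genes make and break down the storage carbohydrates. Their median difference was 0.21 (0.27 and 0.20 on the pairs), and 13 of 19 tested members were higher on both pairs. At an unadjusted p under 0.05, 0 members were higher and 1 was lower. That 1 was PGM1, the minor phosphoglucomutase gene, with a difference of -0.36 ± 0.18. The trehalose phosphatase gene TPS2 differed by 0.29 ± 0.13, and by 0.16 without tra1_S3463A array 1. NTH1, a gene for a trehalase that breaks trehalose down, differed by 0.42 ± 0.03, and ATH1, which makes the acid trehalase, by 0.22 ± 0.03. The list's median came to 0.05 when tra1_S3463A array 1 was left out of the fit and -0.04 when it was counted as tra1_SRR3413. Pair 2, which does not use that array, gave 0.20. The size and sign of this list's difference thus depend on how the arrays were fitted.

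**Figure D4:**
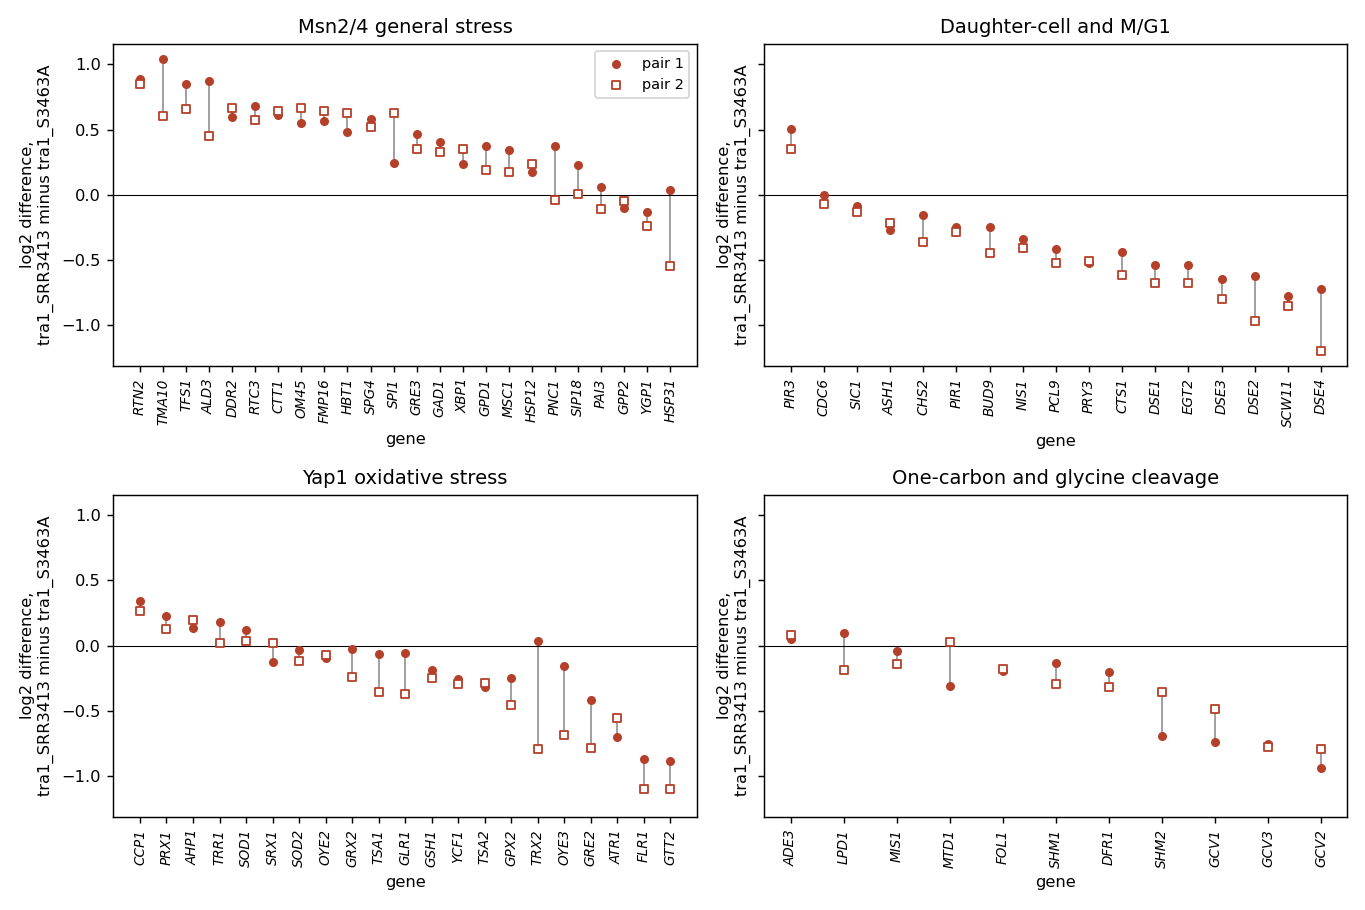
Log2 difference, tra1_SRR3413 minus tra1_S3463A (y axis), of each tested member of 4 lists, in falling order of the mean difference. Filled circles are pair 1 and open squares pair 2, joined by a grey line. In the general stress list 19 of 24 members lie above 0 on both pairs, and in the daughter-cell list 16 of 17 lie below 0 on both.

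Genes of the daughter-cell and M/G1 program, expressed as cells leave mitosis, had the lowest median difference, -0.47 (-0.42 on pair 1 and -0.51 on pair 2). Of 17 tested members, 9 were lower in tra1_SRR3413 at an unadjusted p under 0.05, 1 was higher, and 16 were lower on both pairs. Calls of the 4-array fit were 14 lower and 1 higher. On single arrays the list's median was -0.08 and -0.12 in tra1_SRR3413, against 0.23 and 0.46 in tra1_S3463A. The tra1_SRR3413 strain thus lay near the TRA1 strain and tra1_S3463A above it. In RNA from whole cultures, fewer cells in this phase and less RNA per cell cannot be told apart.

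The members named by rule were DSE3, DSE4, DSE2 and EGT2. DSE2, a gene for a secreted protein that helps daughters separate, stood at -0.26 and -0.17 in tra1_SRR3413, against 0.37 and 0.80 in tra1_S3463A, a difference of -0.80 ± 0.25. EGT2, a gene of the end of cytokinesis, stood at 0.13 and -0.82 in tra1_SRR3413, against 0.68 and -0.14 in tra1_S3463A, a difference of -0.61 ± 0.10. Of the members picked after their values were seen, SCW11, which makes a cell wall glucanase-like protein, differed by -0.82, the chitinase gene CTS1 by -0.53 and DSE1 by -0.61. SIC1, which makes an inhibitor of the B-type cyclin kinase, differed by -0.11 and the replication gene CDC6 by -0.04. The exception was PIR3, a cell wall glycoprotein gene, whose measured difference was 0.43, with spots saturated on 3 of the 4 arrays. When tra1_S3463A array 1 was left out the median was -0.56, and when it was counted as tra1_SRR3413 it was -0.53.

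Genes of folate-linked carbon transfer and glycine cleavage had a median difference of -0.21 (-0.20 and -0.30 on the pairs). Of 11 tested members, 5 were lower at an unadjusted p under 0.05, 0 were higher, and 8 were lower on both pairs. The fit of the 4 arrays called 5 lower. The 3 genes that encode the subunits specific to the glycine cleavage complex, together with the serine hydroxymethyltransferase gene SHM2, led the list. GCV1 stood at -1.97 and -2.18 in tra1_SRR3413, against -1.24 and -1.69 in tra1_S3463A. GCV3 stood at -1.69 and -2.35 in tra1_SRR3413, against -0.94 and -1.57 in tra1_S3463A, and was saturated on 2 of the 4 arrays. SHM2 differed by -0.52 ± 0.24, GCV1 by -0.61 ± 0.18 and GCV3 by -0.77 ± 0.02. LPD1, whose product the glycine cleavage complex shares with other dehydrogenases, differed by -0.05, and was named after its value was seen. Leaving out tra1_S3463A array 1 gave a median of -0.30, and counting it as tra1_SRR3413 gave -0.29.

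GTP synthesis genes had a median difference of -0.41 (-0.31 and -0.41 on the pairs), and 5 of 5 were lower on both pairs, 2 of them at an unadjusted p under 0.05. In the 4-array fit 4 were called lower. IMD3 and IMD4 make isoforms of IMP dehydrogenase, the first enzyme from IMP to GTP. IMD4 stood at -1.18 and -1.44 in tra1_SRR3413, against -0.61 and -0.96 in tra1_S3463A, and IMD3 differed by -0.49 ± 0.11, or -0.26 without tra1_S3463A array 1. GUK1, the guanylate kinase gene, differed by -0.41 ± 0.14 and GUA1, the GMP synthase gene, by -0.22 ± 0.01. IMD2, an inducible isoform that was the lowest of the 5 in both mutants, stood at -3.82 and -4.50 in tra1_SRR3413, against -3.80 and -4.39 in tra1_S3463A, a difference of -0.07. The IMD genes are alike in sequence, so their probes may share signal. The list's median came to -0.26 when tra1_S3463A array 1 was left out and -0.19 when it was counted as tra1_SRR3413.

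Lysine synthesis genes had a median difference of -0.30 (-0.28 and -0.26 on the pairs). Of 9 members, 4 were lower at an unadjusted p under 0.05, 0 were higher, and 8 were lower on both pairs. In the 4-array fit 5 were called lower. LYS20, which makes the homocitrate synthase of the first step, stood at -2.64 and -2.52 in tra1_SRR3413, against -2.12 and -1.80 in tra1_S3463A. LYS9 differed by -0.56 ± 0.17, LYS4 by -0.45 ± 0.03 and LYS1, the gene of the last step, by -0.30 ± 0.05. LYS14, the activator gene of the pathway, differed by -0.07, and was named after its value was seen. When tra1_S3463A array 1 was left out the median was -0.21, and when it was counted as tra1_SRR3413 it was -0.18.

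Histidine synthesis genes had a median difference of -0.21, with 2 of 6 tested members lower at an unadjusted p under 0.05 and 4 lower on both pairs. In the 4-array fit 3 were called lower. HIS1, the gene of the first step, stood at -0.58 and -1.30 in tra1_SRR3413, against -0.22 and -0.71 in tra1_S3463A. HIS4, a gene for an enzyme with several activities of the pathway, stood at -3.27 and -2.48 in tra1_SRR3413, against -2.89 and -2.03 in tra1_S3463A, a difference of -0.42 ± 0.05. HIS5 differed by -0.26 ± 0.13 and HIS2 by -0.16 ± 0.17. Without tra1_S3463A array 1 these were -0.09 and -0.28. HIS3 was well above background on 0 of the 4 arrays, so it has no reliable sign among the 6. Leaving out tra1_S3463A array 1 gave a median of -0.18, and counting it as tra1_SRR3413 gave -0.15.

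Methionine and sulfate assimilation genes stood on the other side from lysine and histidine synthesis, with a median difference of 0.22 (0.24 and 0.16 on the pairs). Of 24 members, 6 were higher at an unadjusted p under 0.05, 0 were lower, and 21 were higher on both pairs. The 4-array fit called 12 higher. MET2, the homoserine acetyltransferase gene, stood at -0.07 and 0.86 in tra1_SRR3413, against -0.78 and 0.49 in tra1_S3463A, a difference of 0.54 ± 0.23. MET10, a sulfite reductase subunit gene, differed by 0.46 ± 0.13. MET32 and MET28, which make DNA-binding regulators of the pathway, differed by 0.52 ± 0.17 and 0.38 ± 0.20. On single arrays the list's median was 0.05 and 0.27 in tra1_SRR3413, against -0.17 and 0.11 in tra1_S3463A. Leaving out tra1_S3463A array 1 gave a median of 0.24, counting it as tra1_SRR3413 0.23 and the slide as a block 0.39.

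Yap1 targets, genes of the defence against oxidants and drugs, had a median difference of -0.21, but -0.09 on pair 1 and -0.28 on pair 2. Of 21 members, 5 were lower at an unadjusted p under 0.05, 0 were higher, 14 were lower on both pairs and 5 were higher on both. Calls of the 4-array fit were 10 lower and 1 higher. GTT2, a glutathione transferase gene, stood at -2.78 and -2.90 in tra1_SRR3413, against -1.89 and -1.80 in tra1_S3463A, a difference of -0.996 ± 0.16. FLR1, a multidrug transporter gene, stood at -1.82 and -2.42 in tra1_SRR3413, against -0.94 and -1.32 in tra1_S3463A, a difference of -0.99 ± 0.16. ATR1, another transporter gene, differed by -0.63 ± 0.10 and the peroxidase gene GPX2 by -0.35 ± 0.15. ATR1 differed by -0.39 without tra1_S3463A array 1. Spots of 5 of the 21 members were saturated on at least 1 of the 4 arrays, 2 of them on all 4. The median came to -0.23 when tra1_S3463A array 1 was left out, -0.18 when it was counted as tra1_SRR3413 and -0.14 with the slide as a block.

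Aryl-alcohol dehydrogenase genes, an AAD family alike in sequence whose probes may share signal, had a median difference of -0.22. All 6 tested members were lower on both pairs, 2 at an unadjusted p under 0.05, and the 4-array fit called 4. AAD4 stood at -3.61 and -3.33 in tra1_SRR3413, against -3.04 and -2.26 in tra1_S3463A, a difference of -0.82 ± 0.35. AAD10 differed by -0.22 ± 0.04. AAD3, well above background on 2 of the 4 arrays, differed by -0.21 ± 0.16, and by -0.08 without tra1_S3463A array 1. Leaving out tra1_S3463A array 1 gave a median of -0.17, counting it as tra1_SRR3413 -0.14 and the slide as a block -0.13.

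Cytosolic ribosomal protein genes were the largest list, and their median difference was -0.25 (-0.17 and -0.33 on the pairs). Of 134 tested members, 44 were lower at an unadjusted p under 0.05, 1 was higher, 109 were lower on both pairs and 7 higher on both. The 4-array fit called 74 lower and 1 higher. The list was drawn by the form of the symbol and so also counts RPP1, an RNase P subunit gene lower on both pairs, among the 134 and the 109, as was seen after its value. Spots of 20 of the 134 were saturated on at least 1 of the 4 arrays, 10 of them on all 4. On single arrays the list's median was 0.30 and -0.28 in tra1_SRR3413, against 0.43 and -0.01 in tra1_S3463A. The level against the TRA1 strain thus turned between the 2 arrays of tra1_SRR3413, which differ in dye orientation and in slide. The median difference between the alleles was negative on both pairs. The median came to -0.28 when tra1_S3463A array 1 was left out, -0.25 when it was counted as tra1_SRR3413 and -0.40 with the slide as a block.

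RPL9A, which makes a protein of the large ribosomal subunit, stood at 0.41 and -0.30 in tra1_SRR3413, against 0.80 and 0.22 in tra1_S3463A. RPS4A, which makes a protein of the small subunit, stood at -0.03 and -0.24 in tra1_SRR3413, against 0.31 and 0.27 in tra1_S3463A. RPL20A differed by -0.49 ± 0.23 and RPS8B by -0.47 ± 0.18. The 1 gene higher at an unadjusted p under 0.05 was RPL7B, with a difference of 0.29, named after its value was seen. Most ribosomal protein genes have a near-identical copy, so values of single genes are uncertain.

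Mitochondrially encoded genes had a median difference of 0.29 (0.29 and 0.23 on the pairs), and 7 of 7 tested members were higher on both pairs, 0 of them at an unadjusted p under 0.05. OLI1, 1 of the 7, was saturated on 4 of 4 arrays, so its sign is uncertain. The 4-array fit called 4 higher. Their levels turned between array 1 and array 2, which differ in dye orientation and in slide. The median was 1.07 and -0.41 in tra1_SRR3413, against 0.80 and -0.54 in tra1_S3463A. On tra1_P3408A array 2, in the same dye orientation but on slide 2, COX1, COX2, ATP6, ATP8 and OLI1 stood above the TRA1 strain. VAR1 and COX3 stood below it there. COX2, a cytochrome oxidase subunit gene, stood at 1.38 and -0.31 in tra1_SRR3413, against 0.82 and -0.53 in tra1_S3463A. VAR1, the ribosomal protein gene of the mitochondrial genome, differed by 0.59 ± 0.03, ATP8 by 0.29 ± 0.05 (0.45 without tra1_S3463A array 1) and COX3 by 0.21 ± 0.11. Leaving out tra1_S3463A array 1 gave a median of 0.45 and counting it as tra1_SRR3413 0.47. The slide as a block, with none for the array number and so none for the dye orientation, gave 0.01. In that fit COX2 (-0.02) and COX3 (-0.11) had the opposite sign. Dye orientation and slide move with this list, and their part in the result was not tested.

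TRA1 and genes of the strain's construction were also followed. TRA1 mRNA stood at 0.94 and 1.93 in tra1_SRR3413, against 0.73 and 1.75 in tra1_S3463A, above the TRA1 strain on all 4 arrays. The difference was 0.20 ± 0.02 with a standard error of 0.18 (limma, adjusted p = 0.832), 0.03 without tra1_S3463A array 1 and -0.02 with that array counted as tra1_SRR3413. Where in TRA1 the probe lies is not given in the sources used here, so its signal was not used to check which allele a strain carried. The plasmid marker LEU2 stood at -0.37 and -0.43 in tra1_SRR3413, against -0.24 and -0.14 in tra1_S3463A. Its difference was -0.21, or -0.32 without tra1_S3463A array 1. URA3 differed by 0.003.

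Among the further genes followed by name, PHO5 and ADH2 are much studied in work on SAGA. PHO5, the repressible acid phosphatase gene, stood at -2.62 and -1.95 in tra1_SRR3413, against -2.39 and -1.52 in tra1_S3463A, a difference of -0.33 ± 0.14 (limma, adjusted p = 0.785). Without tra1_S3463A array 1 it was -0.63. The glucose-repressed alcohol dehydrogenase gene ADH2 differed by 0.15 ± 0.11. ADE17, a gene of the last steps to IMP, stood at -3.80 and -3.67 in tra1_SRR3413, against -3.45 and -3.28 in tra1_S3463A, a difference of -0.37 ± 0.03. INO1, the inositol synthase gene, stood at 0.85 and 1.36 in tra1_SRR3413, against 0.48 and 0.82 in tra1_S3463A. Its difference of 0.45 (0.36 on pair 1 and 0.54 on pair 2) had a standard error of 0.66. In the fit without tra1_S3463A array 1 the difference was -0.14. Both the standard error and that fit also draw on the tra1_P3408A arrays, on which INO1 stood at 1.42 and -0.80. The SD over the 2 pairs was 0.13, so the standard error is not the scatter between these pairs alone. With such a standard error no direction can be given.

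The last question was whether genes that responded to tra1_P3408A, picked on its own arrays, also differed between tra1_SRR3413 and tra1_S3463A. The TRA1 strain is common to all arrays. Of the genes 2-fold or more lower in tra1_P3408A than in the TRA1 strain, 206 in number, the median difference was -0.10 (-0.07 on pair 1 and -0.11 on pair 2). Of these, 112 (54.4%) were lower in tra1_SRR3413 on both pairs, beside 37.9% of all genes. In the median such a gene stood at -1.35 in tra1_SRR3413 and -1.29 in tra1_S3463A. For the 61 genes lower by 3-fold or more the median difference was -0.30 (-0.31 and -0.34 on the pairs), and 45 (73.8%) were lower on both pairs. These genes stood at -2.26 in tra1_SRR3413 and -1.81 in tra1_S3463A in the median.

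For genes higher in tra1_P3408A no such order was seen. The 44 genes 2-fold or more higher had a median difference of 0.04, with 0.05 on pair 1 and -0.02 on pair 2. Of them 20 (45.5%) were higher on both pairs, beside 34.9% of all genes, and 16 (36.4%) were lower on both. The 5313 genes within 1.5-fold of the TRA1 strain in tra1_P3408A had a median of -0.003. Several genes described above lie in the class 3-fold or more lower, among them PHO84, GCV2, LYS20 and GTT2, whose means in tra1_P3408A were -2.32, -2.19, -2.02 and -1.96.

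**Figure D5:**
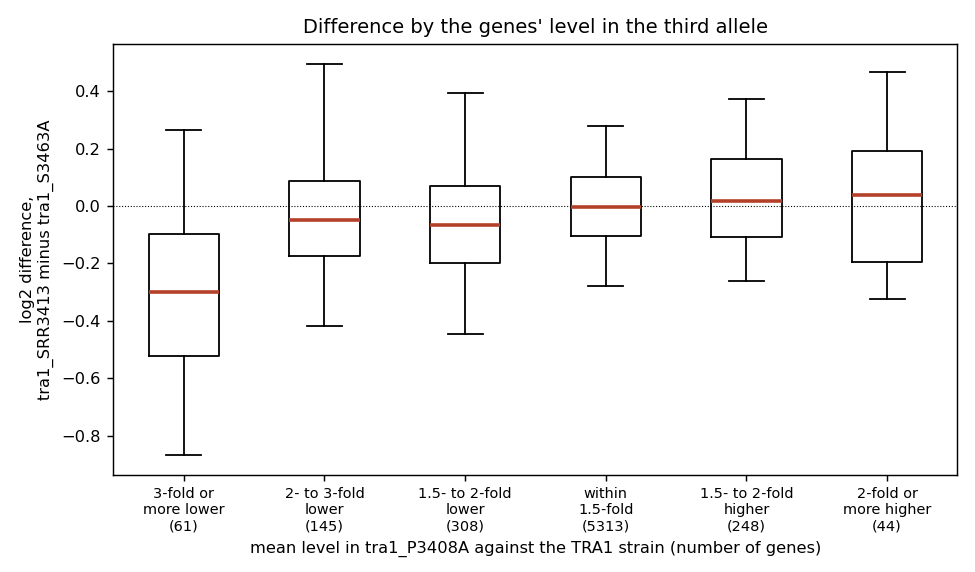
Log2 difference, tra1_SRR3413 minus tra1_S3463A (y axis), of genes grouped by their mean level in tra1_P3408A against the TRA1 strain (x axis, number of genes in brackets). Red lines are medians, boxes the middle 50% of genes and whiskers the 5th to 95th percentile. The 61 genes 3-fold or more lower in tra1_P3408A have a median of -0.30, and the classes from 2- to 3-fold lower to 2-fold or more higher lie between -0.07 and 0.04.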

How the data were processed

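Yeast RNA was amplified and labelled by a company, per the labels' protocols. Per the file headers, the authors used Agilent Feature Extraction 7.5.1, which gave each spot's mean and local background intensity without correction. Its processed intensity is background-subtracted and lowess dye-normalized, and the deposited log10 ratio is that of processed Cy5 over Cy3, per the file headers. Spot flags were deposited as a score of 0 or 1. Values of the deposited matrix are log10 ratios, mutant over TRA1 strain, as 100% of gene spots equalled the turned ratio of dye-normalized signals within 1e-04.

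Analysis used limma 3.58.1, R 4.3.3 and data.table (version 1.17.8). On each array 10807 spots were corrected by normexp (offset 50) and normalized by loess, controls at weight 0. The 544 controls and outlier spots (0.370% to 8.02% of gene spots) were dropped, and saturated spots (0.887% to 1.55%) kept. Outlier spots were 5.27% on tra1_S3463A array 1, whose source names the other strain. On the other arrays of tra1_SRR3413 and tra1_S3463A they were 0.370% to 0.857%. Ratios were turned to log2 mutant over TRA1 strain, and spots of a gene averaged. Genes had to be well above background in 1 channel on 2 arrays, which removed 2, and to have a value on all 6 arrays, which removed 135. Of the file's names, 5756 (92%) were in the R64 table, whose symbols were used.

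lmFit and eBayes fitted 3 allele means and a block for the array number. Tests were two-sided, with Benjamini-Hochberg adjustment over all genes tested and a threshold of 0.05. Per the labels, arrays of 1 number share a dye orientation. Correlations of same-numbered arrays' deviations were 0.512 for tra1_P3408A with tra1_SRR3413, 0.467 for tra1_P3408A with tra1_S3463A and 0.930 for tra1_SRR3413 with tra1_S3463A. Array 2 of tra1_SRR3413 and of tra1_S3463A shared slide 3, so pairing by number and by slide cannot be told apart there. The tra1_P3408A arrays, which followed the pairing less closely, also enter the spread and the standard errors of the main contrast. The pipeline was tested on simulated data. The p-values measure only the spread between these arrays, which may be technical, and leave out that of the TRA1 strain if 1 extract served several arrays.

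The members, the 49 lists and the named genes were chosen with earlier results of these data known. Named genes were the 12 largest called differences in each direction. As fewer than 5 were called, this was filled to 8 by the moderated statistic among genes with 1 sign on both pairs. Added were the 4 members of each described list with the smallest unadjusted p, and the genes TRA1, LEU2, URA3, PHO5, PHO84, ADH2, IMD2, ADE17, HIS4 and INO1. A list was described where 3 members were called, or where its median lay 0.2 or more from that of all genes with its quartiles on 1 side. Alternatives changed the block, arrays, background, normalization, filters, saturated spots and the conflicting label, and left out each array. No sequence is printed, and no promoter was searched.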

Additional observations from a re-analysis of the deposited data

Results flagged for a closer look

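MIX23, DSE2 and RPS4A, all named by rule, lay on opposite sides of the TRA1 strain in tra1_SRR3413 and tra1_S3463A, on every array. Most named genes were picked by this contrast. Genes outside that set did likewise, such as CUR1, RGI1 and SCW11, and the share over all genes was not counted. MIX23, DSE2 and RPS4A are thus given as examples only. The difference in direction was not tested beyond the contrast itself, in which none of them passed. MIX23, which makes a protein of the mitochondrial intermembrane space, was below the TRA1 strain in tra1_SRR3413 (-0.23 and -0.66) and above it in tra1_S3463A (0.44 and 0.13), a difference of -0.725. DSE2, a daughter-cell gene, stood at -0.26 and -0.17 in tra1_SRR3413, against 0.37 and 0.80 in tra1_S3463A, a difference of -0.80. RPS4A, a ribosomal protein gene with a near-identical copy, stood at -0.03 and -0.24 in tra1_SRR3413, against 0.31 and 0.27 in tra1_S3463A, a difference of -0.42. Without tra1_S3463A array 1 the differences were -0.73 for MIX23, -0.98 for DSE2 and -0.46 for RPS4A.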

How the results depend on the processing

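In 20 alternatives, counting those with an array left out, the 16 leading genes kept their sign, as did 60 of 66 named genes and 11 of 12 list medians. The 0 calls in each direction held without the replicate block (0 and 0, smallest adjusted p 0.99956, with 36 genes higher and 69 lower at an unadjusted p under 0.05), so the pairing changed no adjusted call. Only the 4 arrays alone gave calls (615 higher and 644 lower), as did leaving out an array of tra1_P3408A; over all arrays left out in turn the counts ran from 0 to 614 higher and from 0 to 644 lower. The same 4 arrays without the replicate block, chosen after seeing the data, gave 0 and 0, so the calls of the 4-array fit depended on that block. Beside 225 genes higher and 277 lower at an unadjusted p under 0.05, there were 382 and 526 under the slide block, 956 and 1005 with the 4 arrays alone, 105 and 136 with tra1_S3463A array 1 counted as tra1_SRR3413, and 80 and 104 without that array. Counting each of the 12 list medians in each of the 20 alternatives, 179 values moved by less than the spread between pairs. A further 60 moved by more with the same sign and 1 turned. The medians of genes lower and higher in tra1_P3408A were -0.10 (206 genes) and 0.04 (44 genes) at the 2-fold threshold. At 3-fold they were -0.30 (61 genes) and 0.10, the latter from only 3 genes. Signs turned with the slide as a block in place of the array number for COX2 (-0.018), COX3 (-0.11), URA3 (-0.048), IMD2 (0.18) and INO1 (-0.25). With tra1_S3463A array 1 counted as tra1_SRR3413 they turned for TRA1 (-0.024), IMD2 (0.32), INO1 (-0.29) and the trehalose and glycogen median (-0.038). URA3 also turned with median centring (-0.0046) and offset 0 (-0.00078), and IMD2 with scale normalization (0.29). With 1 array left out in turn URA3 ran from -0.061 to 0.068, IMD2 from -0.45 to 0.32 and INO1 from -0.27 to 1.18, negative for INO1 without tra1_SRR3413 array 2 (-0.27) or tra1_S3463A array 1 (-0.14). The cause was not tested. Saturation on at least 1 of the 4 arrays limits 34 of the 283 members of the described lists, 14 of them on all 4, among them SOD1 and OLI1. Low signal limits AAD3 and HIS3.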

Other observations

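Beyond the genes named by rule, other genes that were 1.5-fold or more apart on both pairs are given here, picked after their values were seen. RGI1, a gene of energy metabolism under respiratory conditions, stood at 0.09 and 0.95 in tra1_SRR3413, against -0.87 and -0.31 in tra1_S3463A. Its difference was 1.11 ± 0.20 (SD over the 2 pairs) with a standard error of 0.51. That standard error also draws on the tra1_P3408A arrays, on which RGI1 stood at 0.29 and -1.04. UIP4, a gene for a protein of the endoplasmic reticulum and nuclear envelope, averaged 0.52 in tra1_SRR3413 and -0.27 in tra1_S3463A. CUR1, a gene for a sorting factor of misfolded proteins, averaged 0.44 in tra1_SRR3413 and -0.22 in tra1_S3463A. GAC1, which makes a regulatory subunit of the phosphatase that acts on glycogen synthase, averaged 1.01 in tra1_SRR3413 and 0.33 in tra1_S3463A.

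On the lower side, BNA1, a gene of NAD synthesis from tryptophan, stood at -2.33 and -2.88 in tra1_SRR3413, against -1.51 and -1.87 in tra1_S3463A, a difference of -0.91. OSI1, a gene induced by oxidative stress, averaged -2.12 in tra1_SRR3413 and -1.18 in tra1_S3463A. ADE1, a gene of purine synthesis, averaged -3.07 in tra1_SRR3413 and -2.45 in tra1_S3463A. ZRT1, the high-affinity zinc transporter gene, averaged -1.69 in tra1_SRR3413 and -1.03 in tra1_S3463A, and GDH3, a glutamate dehydrogenase gene, -0.89 and -0.21. SUN4, a cell wall gene of septation, lay on opposite sides of the TRA1 strain, at -0.48 in tra1_SRR3413 and 0.23 in tra1_S3463A.

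Some lists with a median nearer to that of all genes (-0.01) still had most members on 1 side. Of 24 PAU seripauperin genes, a subtelomeric family alike in sequence, 22 were lower in tra1_SRR3413 on both pairs, beside 37.9% of all genes, with a median of -0.14 and 0 at an unadjusted p under 0.05. Of 24 ergosterol synthesis genes, 19 were lower on both pairs (median -0.14), and of 14 genes of purine synthesis from simple precursors, 12 were lower on both (median -0.19). At an unadjusted p under 0.05 there were 2 lower ergosterol genes and 5 lower purine genes, beside 4.53% of all genes, and 0 higher in either list. Of 38 nuclear genes of the respiratory chain and ATP synthase, 25 were higher on both pairs, beside 34.9% of all genes, and 0 were lower on both. Their median was 0.16, with 0.25 on pair 1 and 0.05 on pair 2, where both arrays lay on slide 3. None of these members passed the adjusted threshold in limma, and 4 of the respiratory genes were higher at an unadjusted p under 0.05, beside 3.68% of all genes.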
